A study of Ovis aries with 2 samples.

Results

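Fibroblast growth factor (FGF) and WNT ligands made at the caudal end of the embryo were followed in single cells of day 16 sheep embryos. The 6 genes chosen were FGF8, FGF17, WNT3A, WNT8A, WNT5A and WNT5B, and each matched 1 feature by its symbol among the 26478 features of the gene table. The study dissociated embryos of Ujumqin sheep, its control breed, and of Hulunbuir Short-tail sheep with enzymes, lysed red blood cells in both cell suspensions, and captured the cells by droplet-based 3′ sequencing with unique molecular identifiers (UMIs), so that each UMI stands for 1 captured transcript. Its design text names 3 per breed, but the data hold 1 library per breed in which the embryos are not told apart. There was therefore no replicate error, no difference between breeds could be tested, and breed cannot be told apart from library, dissociation or litter; every interval given is a 95% interval that covers counting error only.

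In the vertebrate tail bud, FGF8 and FGF17 bind FGF receptors and keep the mesoderm behind the forming somites undifferentiated, while WNT3A and WNT8A act through beta-catenin to maintain the bipotent neural and mesodermal progenitors from which the trunk and tail elongate. WNT5A and WNT5B act mainly through the ROR2 and planar polarity route, which directs cell movements during axis elongation. FGF8 transcript is highest at the caudal end and declines towards the somites, which is the basis of its use as a position signal in somite formation.

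The libraries differed in makeup before any ligand was counted. A barcode was kept when it had 200 genes or more and a mitochondrial share below 10%, which left 14554 of 17059 barcodes in Ujumqin, with a median of 9519 UMIs, and 9583 of 10709 in Hulunbuir, with a median of 11879. Cells of an erythroid marker class made up 39.3% of the kept Ujumqin cells (5714 cells) and only 5 Hulunbuir cells, and the Ujumqin cells outside that class were shallow, with a median of 1627 UMIs against 11881 in Hulunbuir. The libraries shared 61 barcodes, and leaving these out moved none of the member folds between libraries or between tail-bud and other cells by over 1.5 times.

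Cells were put in marker classes, called gates, from lists of cell type markers. A cell passed a gate with UMIs of at least 2 of its markers whose summed level was at least 10% of the 99th percentile of that sum, and a cell could pass several gates. The tail-bud gate (T, CDX1, CDX2, CDX4 and NKX1-2) took 746 Hulunbuir cells and 7 Ujumqin cells. In Hulunbuir it rested on the caudal homeobox genes CDX2, detected in 97.3% of its cells, and CDX4, in 96.1%. T, the brachyury gene of the primitive streak and tail bud, was detected in 10.6% of them, NKX1-2 in 1.34% and CDX1 in 0.670%, so the class is better described as CDX2 and CDX4 positive caudal cells than as a pure tail bud. CDX2 is also a gene of hindgut and trophoblast.

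The presomitic gate took 540 Hulunbuir and 21 Ujumqin cells and rested on the Notch ligands DLL3, in 98.7% of its Hulunbuir cells, and DLL1, in 90.7%. MSGN1 and TBX6, defining transcription factors of presomitic mesoderm, were at 8.09 and 2.46 UMIs per 1000000 UMIs of the class (CPM) in Hulunbuir and at 0 in Ujumqin, and MESP1 was at 0 in both. DLL1 and DLL3 are also genes of newborn neurons, so by these genes the presomitic label of the 21 Ujumqin cells is weakly founded. Other markers of the gate were mixed. RIPPLY2 was found in 33.3% of its Ujumqin cells (35.2 CPM, 15 UMIs) and 18.5% of its Hulunbuir cells (91.3 CPM). HES7 was found in 9.52% (2 UMIs) and 11.7%, and MESP2 was at 0 in Ujumqin. The label of the Ujumqin cells therefore stays uncertain. In Hulunbuir, 135 cells passed both the tail-bud and the presomitic gate.

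Among the gates with at least 20 cells, FGF8 was highest in the caudal gates of Hulunbuir. Its level was 163 CPM (156 to 171) in the tail-bud gate, from 1696 UMIs, and 176 CPM (166 to 186) in the presomitic gate, intervals that overlap. It stood at 22.5 CPM (17.2 to 29.1) in the intermediate mesoderm gate, at 21.9 CPM (16.8 to 28.2) in the neural tube gate and at 12.2 CPM (8.78 to 16.5) in the somite gate. The intermediate mesoderm and neural tube intervals overlapped nearly in full, and the somite interval ended just below both. The allantois epithelium gate had 4.20 CPM (3.13 to 5.53), the splanchnic mesoderm gate 2.25 CPM, the mesenchyme gate 1.63 CPM and the allantois mesenchyme gate 1.45 CPM. Of the smaller gates, the notochord gate had 403 CPM (239 to 637) in 4 cells, 2 of which also passed the tail-bud gate, and the gut gate 64.8 CPM (43.0 to 93.6) in 15 cells, 4 of them with FGF8. The intermediate mesoderm gate rested on LHX1, in 78.2% of its Hulunbuir and 81.0% of its Ujumqin cells, and EMX2, in 70.5% and 86.2%. WT1 was found in 51.3% and 29.3%, PAX8 in 26.9% and 24.1%, PAX2 in 4.49% and 5.17%, and OSR1 in 4.49% and 0%. Its label is therefore uncertain.

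The low levels were set against endothelium, a class in which FGF8 is not expected. Endothelial cells of Hulunbuir had 1.63 CPM (0.911 to 2.68) of FGF8 from 15 UMIs. The splanchnic, mesenchyme and allantois mesenchyme levels were thus not separated from that of endothelium. Of the endothelial cells, 3 also passed the tail-bud gate and 2 the presomitic gate. Whether free RNA in the droplets or mixed cells gave these UMIs was not tested. With every cell thinned to 5000 UMIs, FGF8 was detected in 287 of 700 tail-bud cells (41.0%, 37.3 to 44.7) and in 1 of 355 endothelial cells (0.282%). Without thinning the shares were 50.7% and 1.29%, at median depths of 12736.5 and 18983 UMIs. In Ujumqin the erythroid gate served the same purpose, with FGF8 at 0.0787 CPM and in 0.105% of cells at a median depth of 20059.5 UMIs.

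FGF17, a close relative of FGF8 in sequence and in receptor use, had the same 2 leading classes. Its level was 14.9 CPM (12.7 to 17.5) in the tail-bud gate and 19.4 CPM (16.2 to 22.9) in the presomitic gate of Hulunbuir, against 1.74 CPM (0.639 to 3.79) in the somite gate and 0.108 to 0.412 CPM in the splanchnic, mesenchyme, endothelial and both allantois gates. The level in endothelium was 0.108 CPM from 1 UMI, so these low values were not separated from that of endothelium. In the neural tube and intermediate mesoderm gates it was not detected. FGF17 was 8.37% (7.15 to 9.73) of the FGF8 and FGF17 UMIs in the tail-bud gate. It was 0 of 61 such UMIs in the neural tube gate (upper bound 5.87%) and 0 of 59 in the intermediate mesoderm gate (upper bound 6.06%). Of the 61, 32 lay in cells that also passed the tail-bud gate. The neural tube cells outside the tail-bud, presomitic and somite gates had 0 of 29, with an upper bound of 11.9% that includes 8.37%. FGF8 UMIs of the intermediate mesoderm gate thus came with less FGF17 than those of the caudal gates. For the neural tube this holds for the whole gate and was not resolved in its cells alone.

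The canonical ligands WNT3A and WNT8A were near the limit of detection. WNT3A gave 24 UMIs in 24 Hulunbuir cells and WNT8A 16 UMIs in 16 cells, and neither gave a UMI in a kept Ujumqin cell. Of the WNT3A UMIs, 15 lay in the tail-bud gate (1.44 CPM, 0.809 to 2.38), 8 in the presomitic gate and 1 in the neural tube gate. WNT8A had 7 UMIs in the tail-bud gate (0.674 CPM, 0.271 to 1.39), 3 in the presomitic gate and 3 in the neural tube gate, 2 of the last in cells that also passed the tail-bud gate. At such counts their order among these classes is not resolved.

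WNT5B followed FGF8 across the main classes. It stood at 183 CPM (174 to 191) in the tail-bud gate of Hulunbuir, from 1895 UMIs, and at 153 CPM (144 to 163) in the presomitic gate, the reverse of the order of the FGF8 values. Lower levels were seen in the neural tube gate (30.9 CPM, 24.7 to 38.2), the intermediate mesoderm gate (24.1 CPM, 18.5 to 30.8) and the somite gate (14.2 CPM, 10.5 to 18.8). Several extraembryonic and ventral classes had more WNT5B than endothelium (2.60 CPM, 1.67 to 3.87): the allantois epithelium gate had 12.5 CPM (10.6 to 14.7), the splanchnic gate 7.87 CPM (from 213 UMIs) and the allantois mesenchyme gate 6.26 CPM (5.38 to 7.25). In these gates, 12 allantois epithelium, 65 splanchnic and 35 allantois mesenchyme cells also passed the tail-bud gate. The part of such cells in these levels was not measured. Thinned to 5000 UMIs, WNT5B was found in 358 of 700 tail-bud cells (51.1%, 47.4 to 54.9), in 3.28% of splanchnic cells and in 2.82% of endothelial cells, so the splanchnic share was not separated from the endothelial share.

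WNT5A, the best known ligand of ROR2, was sparse and less caudal than WNT5B. Its level was 2.50 CPM (1.64 to 3.67) in the tail-bud gate and 3.03 CPM (1.88 to 4.64) in the presomitic gate of Hulunbuir, against 0.923 CPM (0.597 to 1.36) in the splanchnic, 0.727 CPM in the allantois mesenchyme and 0.395 CPM in the mesenchyme gate. Of the UMIs of WNT5A and WNT5B together, WNT5A made up 1.35% (0.886 to 1.98) in the tail-bud gate, 10.5% (6.91 to 15.1) in the splanchnic gate, 10.4% (6.55 to 15.5) in the allantois mesenchyme gate and 10.1% (6.53 to 14.8) in the mesenchyme gate. WNT5A thus took a larger part of the pair in these classes than in caudal cells. Endothelium, however, had 0.325 CPM (0.0671 to 0.951) of WNT5A and a part of 11.1% from 3 of 27 UMIs, so none of the 3 classes was separated from endothelium.

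**Figure D1:**
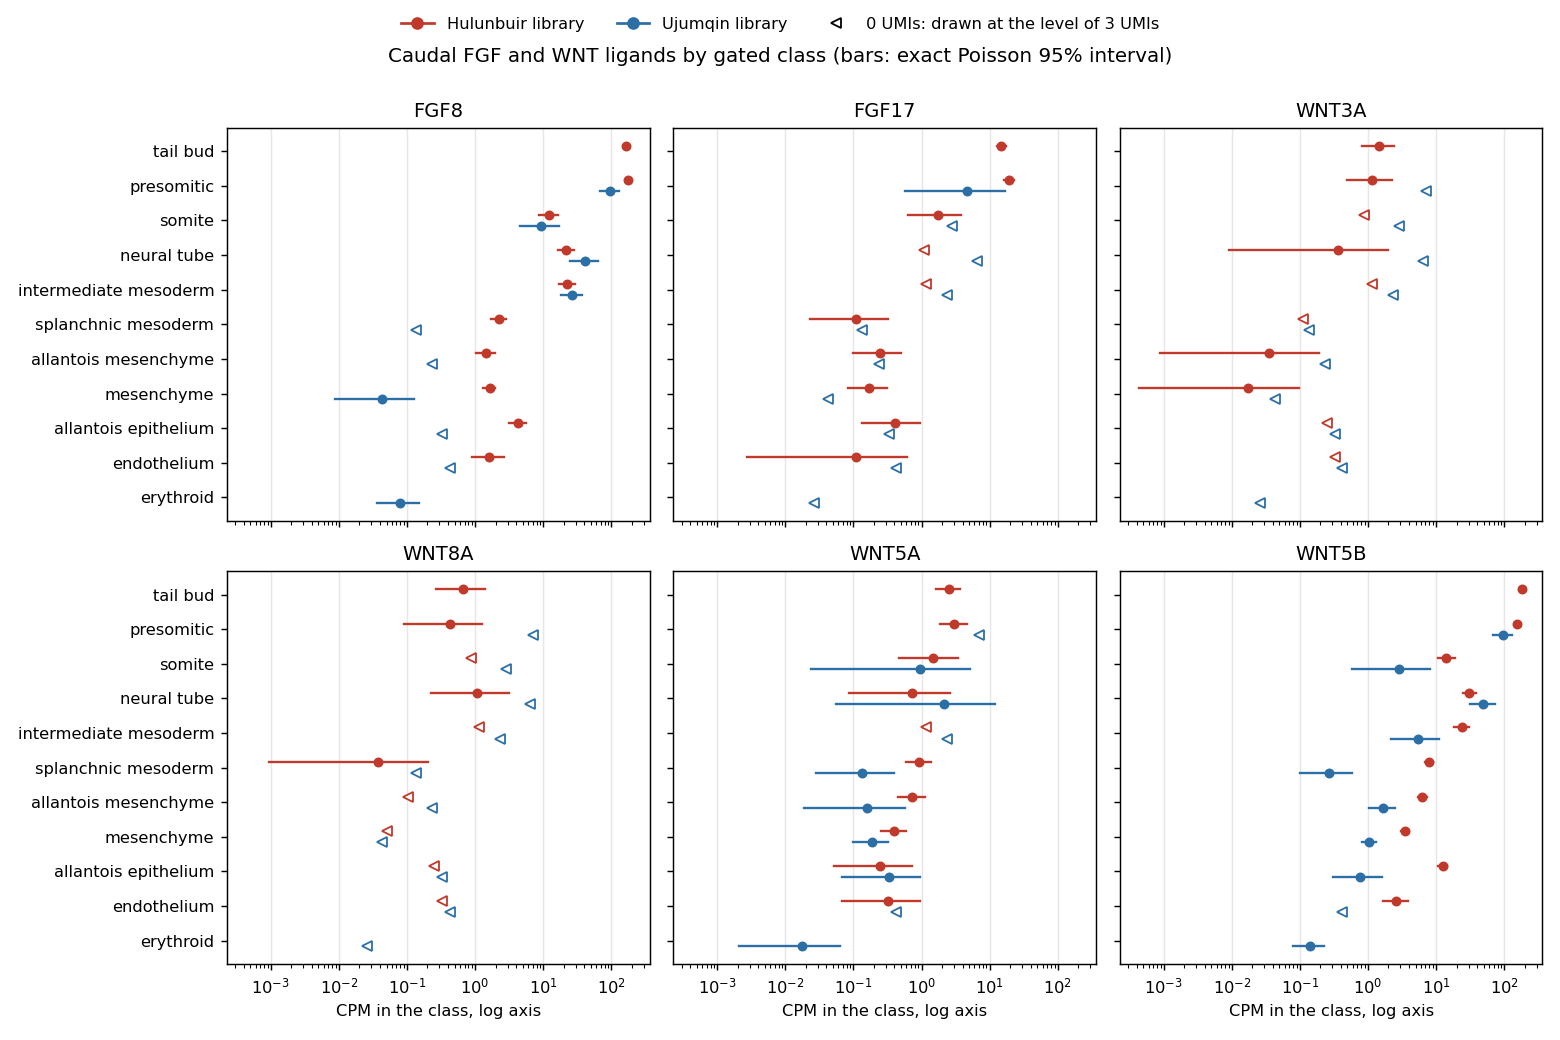
Level of each ligand (CPM, log axis) by gate, with 1 point per library and exact Poisson 95% intervals; gates of under 20 cells are left out, and an open triangle marks 0 UMIs, drawn at the level that 3 UMIs would give. In Hulunbuir FGF8 and WNT5B lie between 153 and 183 CPM in the tail-bud and presomitic gates and at 30.9 CPM or less in every other gate drawn.

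The share of each ligand's UMIs in the caudal gates summarises this. The tail-bud gate held 7.79% of the Hulunbuir cells outside the erythroid gate and 8.07% of their UMIs. It held 46.1% (44.5 to 47.7) of the FGF8, 46.0% of the FGF17, 62.5% (40.6 to 81.2) of the WNT3A, 43.8% of the WNT8A, 40.2% of the WNT5B and 22.8% (15.5 to 31.6) of the WNT5A UMIs. Together with the presomitic gate, which raised the cells to 1151, the shares were 66.3% for FGF8 and 37.7% for WNT5A. A further 1012 FGF8 UMIs (37.3 CPM) and 1647 WNT5B UMIs (60.7 CPM) lay in the 3506 Hulunbuir cells that passed no gate, where FGF8 was found in 11.1% of thinned cells. The gates thus do not enclose all ligand-rich cells.

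Against the other Hulunbuir cells outside the erythroid gate, all 5 members with at least 20 UMIs in the groups together were at least 2-fold higher in the tail-bud gate, beside 8.72% of the 12232 features measured to that depth. The log2 fold was 3.28 (3.19 to 3.38) for FGF8, 3.28 (2.96 to 3.59) for FGF17, 4.25 (2.96 to 5.62) for WNT3A, 2.94 (2.85 to 3.02) for WNT5B and 1.75 (1.06 to 2.40) for WNT5A. WNT8A, with 16 UMIs, had a fold of 3.15 (1.49 to 4.74) and fell under the minimum. The median log2 fold of all features was 0.02. Because CDX2 carries the gate, the same fold was taken with the gate rebuilt without it, on 58 cells: FGF8 then had 3.65, while WNT5A had 0.62 and was no longer 2-fold higher.

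Along the classes from tail bud to somite the 3 more abundant ligands rose and then fell. These classes are exclusive: each holds the cells that passed the gate or gates it is named for and no other of the tail-bud, presomitic, somite and neural tube gates. Among Hulunbuir cells, FGF8 was at 146 CPM (137 to 154) in the 583 cells of the tail-bud gate alone, 261 CPM (238 to 285) in the 133 cells of the tail-bud and presomitic gates that passed neither of the other gates, and 196 CPM (182 to 211) in the 302 cells of the presomitic gate alone. In the 103 cells that were both presomitic and somitic it was at 14.3 CPM (8.72 to 22.1), and in the 166 cells of the somite gate alone at 9.52 CPM (5.73 to 14.9). Among these classes the highest level was in the cells that passed both caudal gates, of which 91.0% had FGF8. The drop came with the first somite markers. Cells chosen by T or by 3 or more tail-bud markers, given below, had more FGF8 than any of these classes. The class of the tail-bud gate alone was not cleared of other gates. Of all tail-bud cells, 65 also passed the splanchnic, 35 the allantois mesenchyme and 12 the allantois epithelium gate. Their part in its lower level was not measured.

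WNT5B took the same course, at 175, 232, 164, 22.9 and 6.52 CPM in these 5 classes. FGF17 stood at 11.3 CPM (9.11 to 13.9), 34.0 CPM (26.0 to 43.6), 18.5 CPM (14.4 to 23.4), 2.86 CPM and 0.501 CPM, the last from 1 UMI. Of these, the peak of FGF17 in the doubly gated cells did not overlap the interval of either neighbour. In the presomitic gate alone over the somite gate alone, the log2 fold was 4.37 (3.71 to 5.11) for FGF8, 4.65 (3.87 to 5.57) for WNT5B and 5.21 (2.68 to 10.5) for FGF17, where 5.31% of 6441 features were at least 2-fold higher. WNT5A, with 14 against 2 UMIs, had 1.93 (-0.20 to 5.11), which the counts do not separate from 0.

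Cells with tail-bud and neural tube markers together had FGF8 and WNT5B. In those 27 cells FGF8 was at 83.3 CPM (57.0 to 118) and WNT5B at 120 CPM (87.7 to 160), and FGF17 had 0 UMIs beside 32 of FGF8. The interval of that share, 0 to 10.9%, includes the 8.37% of the tail-bud gate, so a difference in FGF17 was not detectable at this depth. In the 187 cells of the neural tube gate alone, FGF8 was at 12.2 CPM (8.17 to 17.5) and WNT5B at 16.4 CPM (11.7 to 22.4).

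The ligand level also rose with the number of tail-bud markers in a cell. FGF8 was at 6.99, 72.0, 139 and 359 CPM in Hulunbuir cells with 0, 1, 2 and 3 or more markers, WNT5B at 9.51, 107, 161 and 322 CPM, and FGF17 at 0.527, 7.31, 13.3 and 24.7 CPM. Median depth moved little along this series, at 12007, 10680.5, 13093 and 14752.5 UMIs. In the 106 cells with a UMI of T, FGF8 stood at 330 CPM (301 to 360), WNT5B at 307 CPM (280 to 337) and WNT3A at 3.36 CPM from 5 UMIs, and the FGF8 interval overlapped that of the cells with 3 or more markers (317 to 405).

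**Figure D2:**
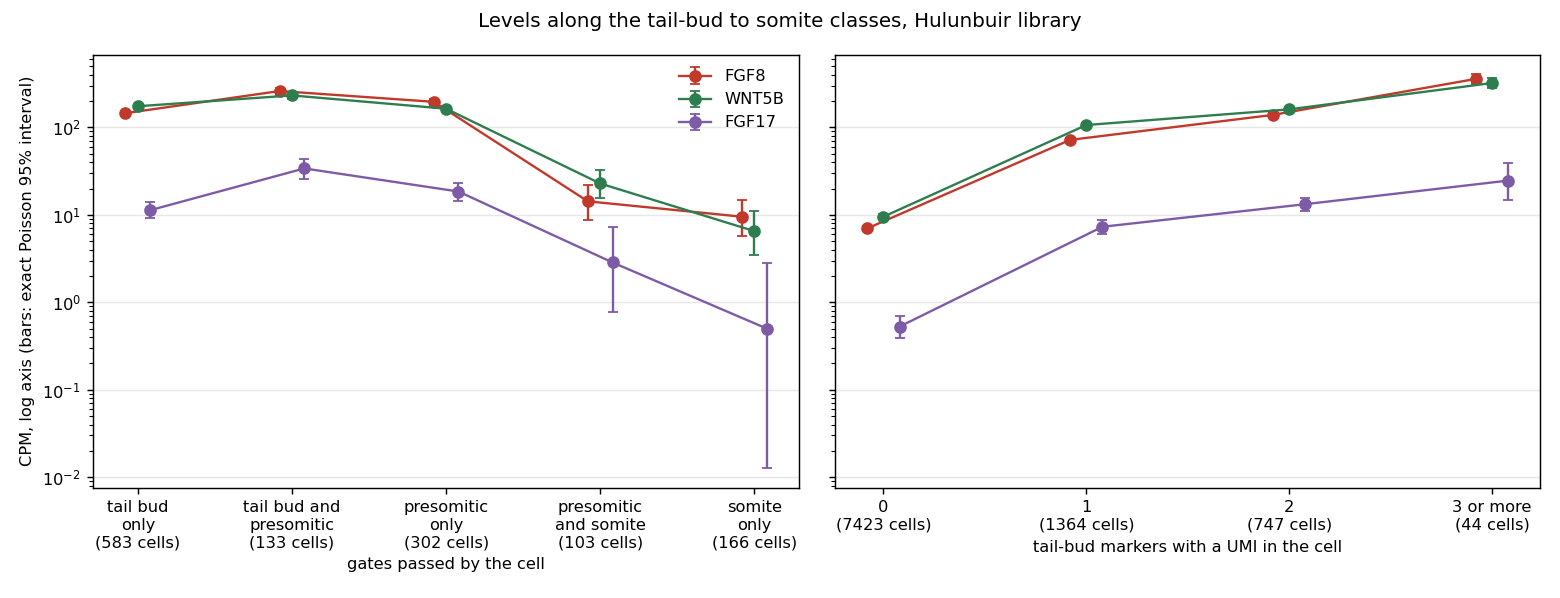
Levels of FGF8, WNT5B and FGF17 (CPM, log axis) in the Hulunbuir library, by the gates a cell passed (left) and by the number of tail-bud markers it had (right), with exact Poisson 95% intervals. Among the classes on the left FGF8 is highest where both caudal gates were passed, at 261 CPM, and falls to 14.3 CPM where somite markers appear. On the right it rises from 6.99 to 359 CPM with the number of markers.

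Single cells differed widely within the tail-bud gate. FGF8 was found in 1052 Hulunbuir cells outside the erythroid gate, with up to 32 UMIs in a cell, and 29.3% of them had 1 UMI; the tenth of positive cells with most FGF8 held 30.6% of its UMIs. FGF17 was found in 270 cells with at most 4 UMIs. Thinned to 5000 UMIs, 37.4% of tail-bud cells had none of the 6 ligands, 28.6% had 1, 29.4% had 2 and 4.14% had 3.

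In the gates as first set, FGF8 and WNT5B were found in the same cells more often than their separate shares would give. In thinned tail-bud cells, WNT5B was detected in 217 of 287 cells with FGF8 (75.6%, 70.2 to 80.5) and in 141 of 413 without it (34.1%, 29.6 to 38.9). With 1 more marker needed for the gate the shares were 85.3% of 34 cells (lower bound 68.9) and 70.0% of 10 (34.8 to 93.3). With CDX2 left out of the gate they were 76.9% of 39 cells (lower bound 60.7) and 70.6% of 17 (44.0 to 89.7). At both settings few cells were left and the intervals overlapped. The share without FGF8 was also higher than in the main gate. Without CDX2 its interval lay above the 29.6 to 38.9 of the main gate. The tie of FGF8 and WNT5B was thus not resolved in these narrower gates, and the cause was not tested. The presomitic gate gave 64.6% (58.1 to 70.6) and 32.2% (26.6 to 38.2), and the cells of no gate 67.6% and 14.5%. In the neural tube gate the shares were 10 of 16 cells and 17 of 177 cells. These cells come from 1 library, so the intervals describe that library alone.

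FGF17 was also found mostly beside FGF8. In the tail-bud gate FGF8 was detected in 33 of 45 thinned cells with FGF17 (73.3%, 58.1 to 85.4) and in 254 of 655 without (38.8%, 35.0 to 42.6). At full depth 114 of 121 FGF17 cells had FGF8 and 116 had WNT5B. Of the 15 WNT3A cells, 13 had FGF8, 15 had WNT5B and 8 had FGF17, while of the 7 WNT8A cells 6 had FGF8, 7 had WNT5B and 0 had FGF17. Among all 746 tail-bud cells at full depth, 50.7% had FGF8, 70.6% WNT5B and 16.2% FGF17. These full-depth counts were not matched for depth. WNT5A showed no tie to FGF8: it was found in 6 of 287 thinned cells with FGF8 (2.09%, 0.771 to 4.49) and 7 of 413 without (1.69%, 0.684 to 3.46).

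The same was seen in levels. Between the 378 tail-bud cells with FGF8 and the 368 without, the log2 fold was 3.88 (2.92 to 5.04) for FGF17, 1.83 (1.67 to 2.00) for WNT5B, 2.56 (0.42 to 5.75) for WNT3A from 13 against 2 UMIs and -0.36 (-1.60 to 0.86) for WNT5A. Of all features, 3.16% were at least 2-fold higher and 4.63% at least 2-fold lower. Cells with FGF8 were slightly deeper, with a median of 13270 against 11900.5 UMIs, and CPM divides by that depth.

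**Figure D3:**
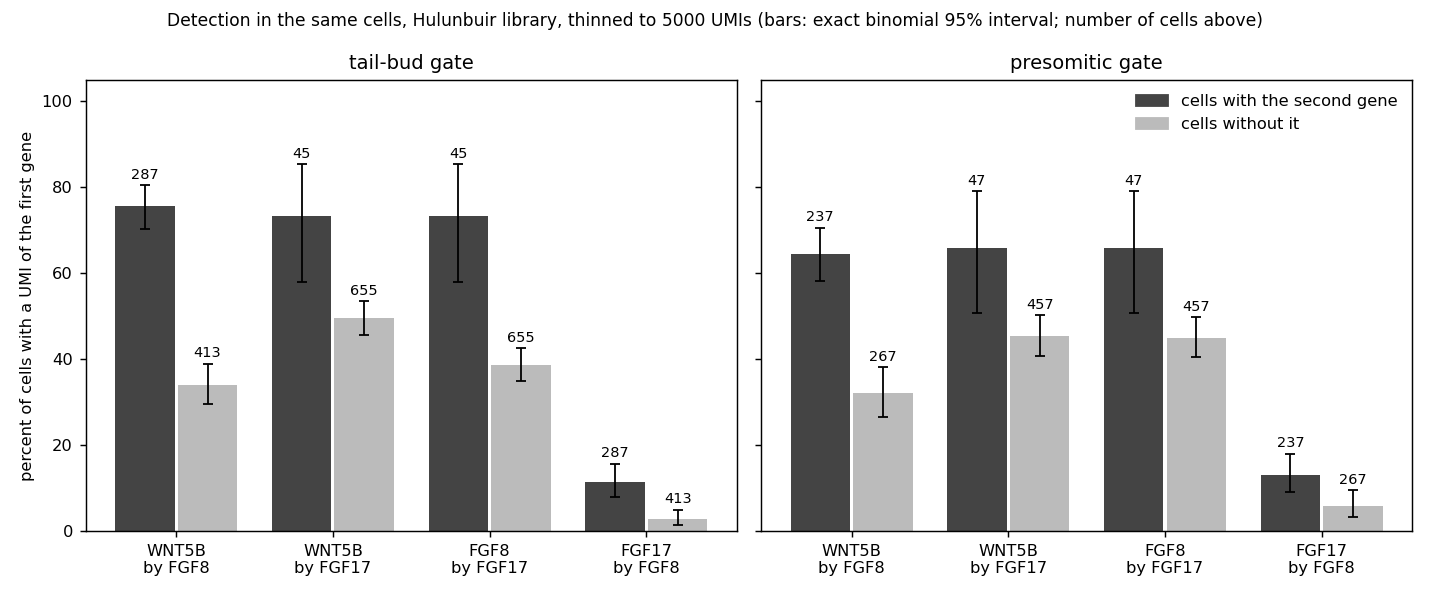
Percent of Hulunbuir cells with a UMI of the first gene among cells with (dark) and without (light) the second gene, in the tail-bud and presomitic gates after thinning to 5000 UMIs, with exact binomial 95% intervals and the number of cells above each bar. WNT5B was found in 75.6% of tail-bud cells with FGF8 and 34.1% of those without.

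Between breeds, the members were higher in the Hulunbuir library. Over all kept cells outside the erythroid gate, FGF8 was at 28.6 CPM in Hulunbuir and 1.59 CPM in Ujumqin, 18.0-fold (log2 4.17, 3.94 to 4.42), and WNT5B at 36.6 and 2.24 CPM (log2 4.03, 3.83 to 4.24). FGF17 had 337 UMIs against 4 (log2 5.96, 4.59 to 7.85) and WNT5A 114 against 17 (log2 2.31, 1.57 to 3.14). WNT3A was at least 5.92-fold higher and WNT8A at least 3.95-fold, each set against 3 counts over the Ujumqin cells. All 5 members with at least 20 UMIs were at least 2-fold higher, as were 19.0% of 13151 features, and 5.68% of features were at least 2-fold lower, with a median log2 fold of 0.38 over all of them. These sums cannot tell fewer caudal cells from less RNA per cell, and Hulunbuir had 746 tail-bud cells where Ujumqin had 7.

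The Ujumqin tail-bud gate was too small to compare, with 2 FGF8 and 3 WNT5B UMIs in its 7 cells. The presomitic gate was the nearest class with counts in both libraries: FGF8 was at 176 CPM in Hulunbuir and 96.1 CPM (69.0 to 130) in Ujumqin, and WNT5B at 153 and 96.1 CPM, log2 folds of 0.87 (0.42 to 1.36) and 0.67 (0.22 to 1.16). FGF17, with 134 against 2 UMIs, had a log2 fold of 2.05 (0.17 to 5.11). Only FGF17 was at least 2-fold higher, beside 19.6% of 6992 features, and the median of all features was 0.28. With 1 more marker needed for the gate 0 members passed, but only 5 Ujumqin cells were left, too few to decide the call. The FGF17 call was lost by the mean of the cells' CPM, when the log2 fold of FGF17 was 0.08 and those of FGF8 and WNT5B were 2.49 and 2.42. However, 36 of the 41 Ujumqin FGF8 UMIs and 38 of the 41 WNT5B UMIs came from 2 cells of 121943 and 130547 UMIs. Without these cells, Ujumqin was at 28.7 CPM (9.32 to 67.0) for FGF8 and 17.2 CPM for WNT5B, and the log2 folds were 2.62 (1.39 to 4.24) and 3.15 (1.60 to 5.43). FGF17 then had 1.75 (-0.75 to 7.07) from 1 Ujumqin UMI. FOS, an immediate early gene that dissociation can induce, was at 246 CPM in the Ujumqin and 54.2 CPM in the Hulunbuir presomitic gate, with the 2 deep cells included. The part of FOS in these folds was not tested.

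The same cells governed the neural tube gate. FGF8 was at 21.9 CPM in Hulunbuir and 41.1 CPM (24.7 to 64.2) in Ujumqin (log2 -0.91, -1.67 to -0.08), where 19.9% of features were at least 2-fold higher and 3.81% at least 2-fold lower in Hulunbuir. Yet 18 of the 19 Ujumqin UMIs lay in 1 of them. Without it the Ujumqin level was 3.01 CPM from 1 UMI and the fold turned to 2.86 (0.33 to 8.19). For WNT5B the fold went from -0.69 (-1.36 to 0.05) to 1.04 (-0.24 to 2.70). No direction between the libraries can therefore be given for the neural tube.

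In the intermediate mesoderm gate, Ujumqin FGF8 did not rest on the 2 deep cells. It was found in 15 of 58 Ujumqin cells and 20 of 156 Hulunbuir cells, at 26.4 CPM (18.3 to 36.9) and 22.5 CPM (17.2 to 29.1), a log2 fold of -0.23 (-0.86 to 0.42) that spans 0 and lies below 2-fold in both directions. WNT5B in the same cells was at 5.44 CPM (2.19 to 11.2) in Ujumqin and 24.1 CPM (18.5 to 30.8) in Hulunbuir, a log2 fold of 2.15 (1.02 to 3.52), where 12.8% of 5908 features were at least 2-fold higher. The makeup of the pair accordingly differed, WNT5B being 17.1% (7.15 to 32.1) of their joint UMIs in Ujumqin and 51.6% (42.4 to 60.8) in Hulunbuir. Of the Hulunbuir cells of this gate, 5 also passed the presomitic gate and 1 the tail-bud gate, against 0 Ujumqin cells in each. The part of these cells in the difference was not measured. In the somite gate FGF8 was at 9.38 CPM in Ujumqin and 12.2 CPM in Hulunbuir (log2 0.38, -0.64 to 1.54), where 13.2% of features were at least 2-fold higher in Hulunbuir.

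In the classes where Hulunbuir FGF8 was low it was at or near 0 in Ujumqin. It had 0 UMIs in the Ujumqin splanchnic, allantois mesenchyme, allantois epithelium and endothelium gates, which makes Hulunbuir at least 16.6-fold, 6.15-fold, 12.8-fold and 3.86-fold higher against 3 counts in each gate. In the same order, 65, 35, 12 and 3 Hulunbuir cells of these gates also passed the tail-bud gate, against 0 Ujumqin cells in each. The difference thus had the same direction in endothelium, where FGF8 is not expected. At least 2-fold higher in Hulunbuir were 16.6% of all features in the splanchnic gate, 14.1% in the allantois mesenchyme gate, 16.7% in the allantois epithelium gate, 19.1% in the endothelium gate and 15.2% in the mesenchyme gate. WNT5B in the splanchnic gate was at 7.87 CPM in Hulunbuir and 0.271 CPM (0.0993 to 0.589) in Ujumqin, a log2 fold of 4.86 (3.72 to 6.32), and in the mesenchyme gate at 3.50 and 1.03 CPM (log2 1.76, 1.37 to 2.17). WNT5A in the mesenchyme gate, at 0.395 and 0.186 CPM, had a log2 fold of 1.08 (0.04 to 2.19). In cells of no gate FGF8 was at 37.3 CPM in Hulunbuir and 4.30 CPM in Ujumqin (log2 3.12, 2.75 to 3.51) and WNT5B at 60.7 and 5.60 CPM (log2 3.44, 3.12 to 3.78), where 18.9% of features were at least 2-fold higher. Free ligand RNA was not measured in either library. Its part in these differences, and that of cells shared with the tail-bud gate, was not tested.

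**Figure D4:**
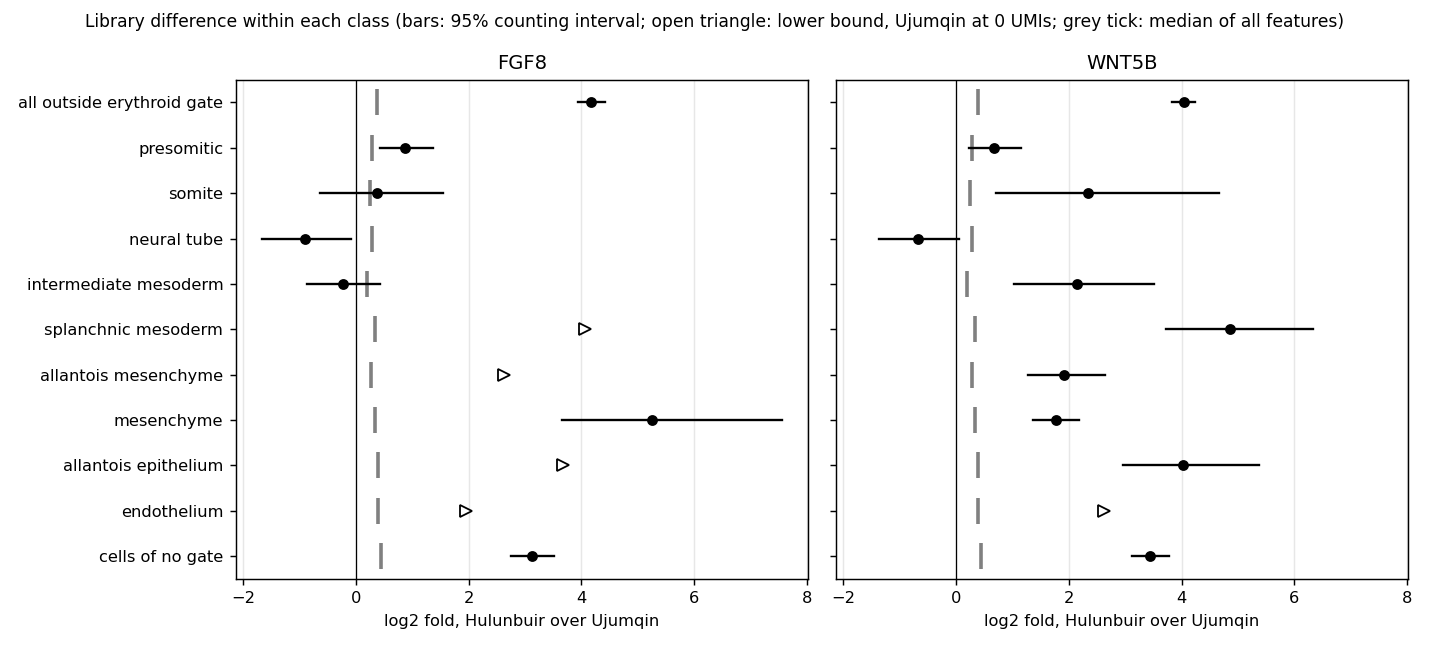
Log2 fold of FGF8 (left) and WNT5B (right), Hulunbuir over Ujumqin, over all cells outside the erythroid gate and within each class, with 95% counting intervals; an open triangle is a lower bound against 0 Ujumqin UMIs and a grey tick the median of all features. FGF8 is 4.17 over all cells, 0.87 in the presomitic gate, -0.91 in the neural tube gate and -0.23 in the intermediate mesoderm gate.

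The rest of the pathway was read from 8 lists, of which 93 genes were in the gene table. In the Hulunbuir tail-bud gate, 25 of the 63 listed genes with enough UMIs were at least 2-fold higher than in the other cells and 11 at least 2-fold lower, where 8.72% and 9.60% of all features were. FGF receptors came first: FGFR1, the main receptor of the mesoderm, was at 57.3 against 23.1 CPM (log2 1.31, 1.18 to 1.44), and FGFR2, the receptor of epithelia, at 2.60 against 5.05 CPM (log2 -0.96). FGFRL1, a receptor without a kinase, had 1.39 (-0.18 to 2.71), and FGFR3 0.66 (-1.05 to 2.02). FGFR1 was thus the receptor with the clear excess.

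FGF feedback targets were the list with most genes up, with 8 of 11 at least 2-fold higher, 1 lower and a median log2 fold of 2.15. DUSP6, the phosphatase that dampens ERK, was at 380 against 75.5 CPM (log2 2.33, 2.28 to 2.39). The membrane inhibitor IL17RD had 2.40 (2.20 to 2.60), and the ETS factors ETV4 and ETV5 had 2.62 (1.76 to 3.44) and 2.48 (1.94 to 3.00). FLRT3, an adhesion protein of FGF signalling, was the 1 lower gene, at -1.96 (-2.51 to -1.47).

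WNT targets came next, with 6 of 8 at least 2-fold higher and a median of 1.98. SP5 had 2.59 (1.68 to 3.46), TCF7 2.34 (1.73 to 2.92), TNFRSF19 2.24 (1.13 to 3.25) and LEF1 2.07 (1.84 to 2.30); TCF7 and LEF1 are the factors that carry beta-catenin to DNA. Of the WNT receptors, 4 of 15 were higher and 3 lower, among them the polarity co-receptor PTK7 at 2.44 (2.15 to 2.72) and FZD10 at 2.35 (2.17 to 2.53), against FZD4 at -2.22 (-2.75 to -1.73) and ROR1 with 0 UMIs, a log2 fold of -1.95 or lower against 3 counts. WLS, which carries WNT proteins to the cell surface, was at 43.5 against 12.3 CPM (log2 1.83, 1.67 to 1.98). The agonist RSPO2 was at -3.05 (-6.11 to -1.18) and RSPO3 at -0.42 (-0.52 to -0.33), which is under 2-fold.

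Other ligands did not share the members' pattern as a list. Of 10 other FGF ligands 3 were higher and 2 lower, with FGF4 at 1.87 (0.51 to 3.06) and FGF19 at 1.76 (1.17 to 2.31) against FGF7 at -3.97 (-5.19 to -2.99) and FGF18 at -2.92 (-8.24 to -0.40), the last from 1 against 86 UMIs. Of 3 other WNT ligands, WNT2, a ligand of lung and allantois mesoderm, was at -4.84 (-6.06 to -3.86), WNT2B at -2.16 (-3.79 to -0.92) and WNT11 at 0.19. Among 8 antagonists, DKK1 was higher at 1.63 (0.58 to 2.58), and FRZB at -1.48 (-1.96 to -1.04) and CER1 at -3.79 (-5.00 to -2.81) were lower, while DKK2 had -0.92. Of 8 stress and immediate early genes, 0 passed 2-fold in either direction.

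**Figure D5:**
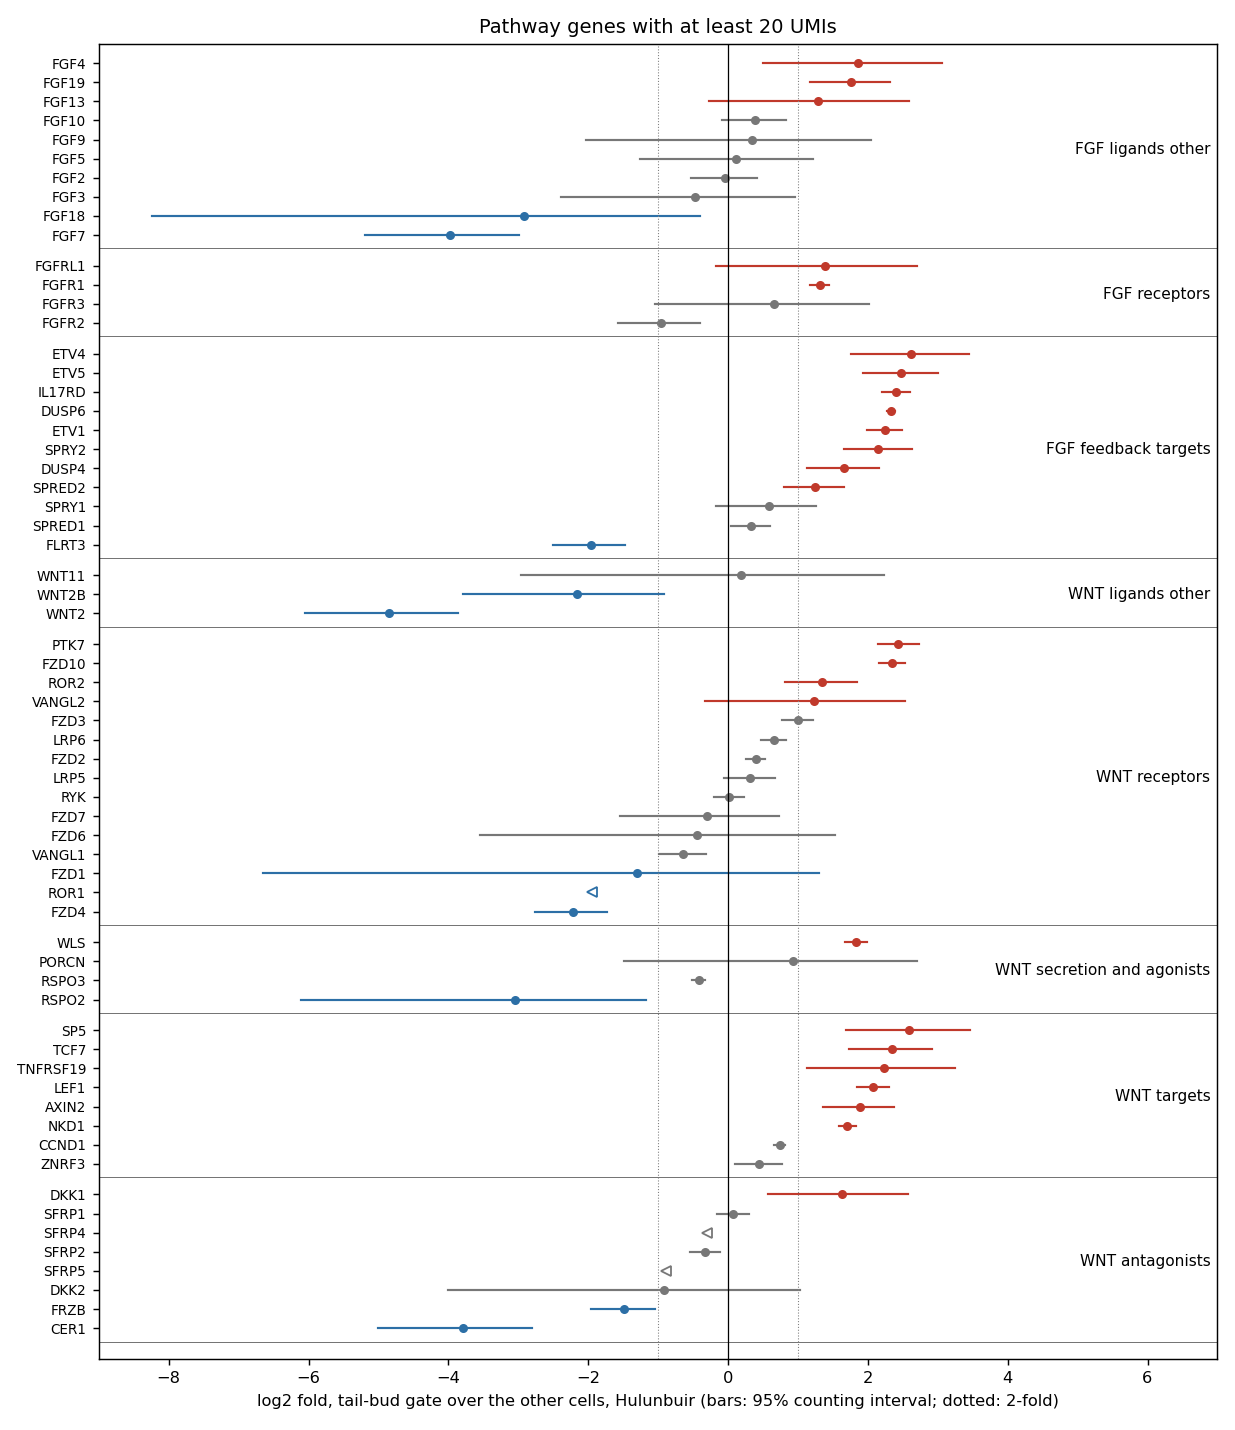
Log2 fold of each pathway gene with at least 20 UMIs, tail-bud gate over the other Hulunbuir cells outside the erythroid gate, by list, with 95% counting intervals; red is at least 2-fold higher, blue at least 2-fold lower, and open triangles are bounds at 0 UMIs. FGF feedback targets and WNT targets lie mostly to the right, with medians of 2.15 and 1.98, and FLRT3 lies to the left at -1.96.

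Between the Hulunbuir cells of the presomitic gate alone and those of the somite gate alone, the exclusive classes above, 9 of 27 listed genes were at least 2-fold higher in presomitic cells and 3 lower, where 5.31% and 4.05% of all features were. DUSP6 had a log2 fold of 2.03 (1.80 to 2.26), IL17RD 2.04 (1.23 to 2.96), PTK7 2.51 (1.05 to 4.45), FZD10 2.37 (1.31 to 3.63), TCF7 2.44 (0.40 to 5.58) and WLS 2.02 (1.28 to 2.84). RSPO3, the R-spondin, was here on the presomitic side at 1.79 (1.53 to 2.06), at 236 against 68.2 CPM. The antagonists CER1 at -2.35 (-2.70 to -2.01) and SFRP2 at -1.13 (-1.70 to -0.55) were on the somite side. For CER1 this holds for the exclusive classes, at 26.9 CPM in the presomitic cells, and not for the whole presomitic gate, where it was at 124 CPM. The FGF receptor FGFR1 was at 52.5 and 65.2 CPM in the same exclusive classes (log2 -0.31, -0.64 to 0.02), so FGF8, DUSP6 and IL17RD differed between these classes by more than the receptor did.

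Within the tail-bud gate, cells with FGF8 differed from cells without it by at least 2-fold in 11 of 37 listed genes, 8 higher and 3 lower, where 3.16% and 4.63% of all features were. NKD1, a WNT target that inhibits the pathway, had 1.40 (1.16 to 1.65), TCF7 1.45 (0.31 to 2.72), SPRY2 1.26 (0.34 to 2.26), RSPO3 1.15 (0.95 to 1.36), SFRP2 1.15 (0.70 to 1.62) and IL17RD 1.04 (0.68 to 1.40). FRZB at -1.51 (-2.60 to -0.51), FGFR2 at -1.39 (-2.79 to -0.13) and VANGL1 at -1.06 (-1.78 to -0.37) were the lower ones. DUSP6 differed little, at 423 and 333 CPM (log2 0.34, 0.25 to 0.44), and was therefore high in tail-bud cells whether or not an FGF8 UMI was caught.

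Between the libraries, 28 of 66 listed genes were at least 2-fold higher in Hulunbuir outside the erythroid gate and 2 were lower, where 19.0% and 5.68% of all features were. Feedback targets had 7 of 11 higher, among them IL17RD at 3.01 (2.69 to 3.34), FLRT3 at 2.07 (1.88 to 2.26), DUSP6 at 1.81 (1.75 to 1.87) and DUSP4 at 1.55 (1.09 to 2.03). FGFR1 had 1.59 (1.47 to 1.70), FZD10 2.66 (2.40 to 2.92), PTK7 1.98 (1.65 to 2.33) and WLS 1.58 (1.44 to 1.73), and WNT targets had 5 of 9 higher, with TCF7 at 2.53 (1.75 to 3.41), AXIN2 at 1.77 (1.27 to 2.30) and LEF1 at 1.71 (1.48 to 1.95). DKK1 stood at 5.37 (2.84 to 10.7) from 56 against 1 UMI. The genes lower in Hulunbuir were KLB, the co-receptor of endocrine FGFs, with 1 against 109 UMIs (log2 -7.20, -12.5 to -4.69), and DKK2 at -1.61 (-2.15 to -1.10). Of 9 stress genes 3 were at least 2-fold lower in Hulunbuir, FOS at 60.0 against 344 CPM, and their part in these differences was not tested.

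Within the presomitic gate few listed genes could be called between libraries. Of 34 genes, 2 were at least 2-fold higher in Hulunbuir and 2 lower, where 19.6% and 4.58% of all features were: LEF1 at 2.27 (0.39 to 5.32, 156 against 2 UMIs) and PTK7 at 1.09 (-0.82 to 4.16), and ETV1 at -1.76 (-2.48 to -0.96) and LRP5 at -1.40 (-2.65 to 0.14). DUSP6 was at 334 and 187 CPM (log2 0.83, 0.51 to 1.17) and CER1 at 124 and 65.6 CPM (log2 0.92, 0.37 to 1.51). Of the 34 genes, 7 had 0 Ujumqin UMIs and a Hulunbuir level below that of 3 Ujumqin UMIs, so they could not have been called higher. The 2 deep Ujumqin cells, of 121943 and 130547 UMIs, made up most of the 426694 UMIs of this Ujumqin gate. The second of them also passed the neural tube and notochord gates. These pathway values and shares of all features include both cells and are not given without them.

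Across the 23 classes of at least 20 cells in both libraries, on the scale log2(CPM + 10), the members most alike were FGF8 and WNT5B (Pearson r = 0.92) and FGF17 and WNT3A (r = 0.91), and the least alike were WNT8A and WNT5A (r = 0.48). The classes share libraries and some cells, so these values are descriptions. WNT3A, WNT8A and WNT5A reached at most 1.44, 1.08 and 3.03 CPM in any of them, small beside the 10 that was added. Their r values therefore follow few UMIs. Among 2862 genes that reached 50 CPM in some class, HOXC4 was nearest to FGF8 (r = 0.92) and to WNT5B (r = 0.89), and FGF8 was followed by the fructose carrier gene SLC2A5 (r = 0.87), HOXA3 (r = 0.87), the retinoic acid binding protein gene CRABP1 (r = 0.86) and NFE2L3 (r = 0.86). SLC2A5 and CRABP1 were also among the 5 nearest to WNT5B, with r = 0.88 each. PRR13 was nearest to FGF17 (r = 0.82), LSAMP to WNT3A (r = 0.73), FEZ1 to WNT8A (r = 0.72) and MLLT3 to WNT5A (r = 0.76), of which the last 3 follow members with few UMIs.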

How the data were processed

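The authors deposited 10x Genomics count tables of UMIs per gene and barcode, 1 per breed, aligned to the Rambouillet sheep genome. The labels list Cell Ranger 3.1.0, Seurat 3.2.0 and R 3.6.1, while the matrix header names Cell Ranger 5.0.0; the difference was not resolved. Totals were 212933364 UMIs in Ujumqin and 131385353 in Hulunbuir. Kept cells had at least 200 genes and under 10% mitochondrial UMIs. UMI counts were summed per class and divided by all UMIs of the class (CPM), with exact Poisson intervals. Folds are ratios of CPM with exact conditional binomial intervals, shares have exact Clopper-Pearson intervals, and a 0 was set against 3 counts. A feature counted as changed at 2-fold with at least 20 UMIs in the groups together. With 1 library per breed no test was run. Doublets were kept, and removed by Scrublet score as an alternative. For co-detection each cell was thinned to 5000 UMIs.

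The members, marker lists and pathway lists were chosen with earlier results of these data known, and the scoring rule of the gates was set after the data were seen. The text names all members, and per pathway list and comparison up to 4 genes of largest absolute log2 fold with at least 20 UMIs. Outside that number, 2 values were named after they were seen. These are FLRT3 in the tail-bud comparison and DUSP6 between tail-bud cells with and without FGF8. Likeness used the 5 genes of largest r. Of the feature symbols, 83 occurred more than once. The fold step was tested on simulated data. Analyses used Python 3.11.15 with numpy 2.4.6, scipy 1.17.1, pandas 2.3.3, scanpy 1.11.5 and matplotlib 3.10.9. The alternatives tried were other cell filters, doublet removal, other gates, other totals, other fold and UMI minimums and other thinning depths.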

Additional observations from a re-analysis of the deposited data

How the results depend on the processing

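With 1 library per breed, depth and gate size set the limits: WNT3A and WNT8A rest on 24 and 16 UMIs, and the Ujumqin tail-bud gate on 7 cells. No member fold between the libraries outside the erythroid gate and within the presomitic gate, or between tail-bud and other cells, changed direction over 140 alternative values of 13 folds, and 9 of them moved by over 1.5 times. The alternatives without the 2 Ujumqin cells of most FGF8 and without shared barcodes were chosen after seeing the data. With 1 more marker needed, the presomitic gate shrank to 159 Hulunbuir and 5 Ujumqin cells, and 0 members were higher in it instead of 1. The tail-bud gate shrank to 44 Hulunbuir and 0 Ujumqin cells, with FGF8 at 359 and WNT5B at 322 CPM. At that setting 7 pathway genes were lower in tail-bud cells instead of 11, and WNT5B was found in 85.3% of cells with FGF8 and 70.0% without. Without CDX2 in the gate the values were 337 and 339 CPM, 6 pathway genes lower and 70.6% of the cells without FGF8; without T, FGF8 was at 154 CPM. Without mitochondrial, ribosomal protein and haemoglobin genes in the total, FGF8 was at 231 and WNT5B at 259 CPM. At 4-fold, 12 pathway genes were higher and 7 lower in tail-bud cells, and 9 higher and 1 lower in Hulunbuir, where 5 were lower with no minimum of UMIs. In the presomitic gate 2 members were higher by the mean of the cells' CPM, which put FGF8 at a log2 fold of 2.49, WNT5B at 2.42 and FGF17 at 0.08, and 3 without the 2 Ujumqin cells. WNT5B was found in 47.7%, 87.9% and 59.5% of tail-bud cells with FGF8, and in 21.2%, 52.2% and 14.3% of those without, when cells were thinned to 2000 or 10000 UMIs or needed 2 UMIs to be positive. The cause of these shifts was not tested. No paired analysis was possible because each breed has 1 library.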

Other observations

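The genes next to the members in RefSeq's annotation of the assembly ARS-UI_Ramb_v3.0, used for gene order only, were measured in the Hulunbuir tail-bud gate over the other cells. Beside FGF8, FBXW4 had a log2 fold of 0.97 (0.21 to 1.67) and NPM3 -0.22 (-0.60 to 0.14), against 3.28 for FGF8 itself. ERC1 beside WNT5B had 0.46 (-0.08 to 0.96) and FBXL14, on its other side, 1.44 (0.28 to 2.46) from 10 UMIs in the gate. CACNA2D3, the calcium channel subunit gene beside WNT5A, had 2.82 (1.70 to 3.88) from 13 UMIs, an interval that overlaps that of WNT5A (1.06 to 2.40). FAM13B beside WNT8A had 0.36 (-0.03 to 0.74). The FGF17 and WNT3A neighbours DMTN and ARF1 had under 3 UMIs in the gate, and WNT9A had 0 in all Hulunbuir cells outside the erythroid gate.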
